A study of Rattus norvegicus with 10 samples.

Results

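The 10 genes described here cover the making of bile acids in liver: the enzymes Cyp7a1, Cyp8b1, Cyp27a1, Cyp7b1, Hsd3b7, Akr1d1, Slc27a5 and Baat, the nuclear receptor Nr0b2 and the growth factor receptor Fgfr4. They were taken as every probe set whose platform annotation gives exactly 1 gene symbol and that symbol is one of the 10, which gave 11 probe sets of 31042 tested, with 2 for Akr1d1 and 1 for each other gene. The set of 10 genes, of 14217 named on the array, was chosen by the Cyp7a1 values themselves, which differed 13.1-fold between the highest and the lowest animal, so these values are a description and carry no test. Livers of 10 male rats of the outbred Sprague-Dawley strain were measured. Bulk drug factory effluent was given, as a short-term exposure, to 5 of them, and the other 5 served as controls, with 1 Affymetrix array per animal. The labels name no further treatment that both groups share, and nothing beyond a separate sample for each rat. The labels give no dose, length of exposure, age, feeding state or hour of sampling. Values are log2 expression per probe set, normalized by the authors with RMA, so 1 unit is a doubling. Array medians lay between 5.43 and 5.49 and pairs of arrays correlated between 0.991 and 0.996.

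Bile acids are made from cholesterol in hepatocytes. Cyp7a1 adds a hydroxyl group to the cholesterol ring and sets the rate of the classic pathway, while Cyp27a1 and Cyp7b1 belong to the alternative pathway, which starts at the side chain. When bile acids are plentiful, the receptor FXR (Nr1h4) raises Nr0b2, also called SHP, which is known to repress Cyp7a1 and Cyp8b1, and an intestinal fibroblast growth factor acts on Fgfr4 to the same end. Cyp7a1 mRNA is short-lived and is known in rodents to swing over the day. The 5 measured hepatocyte markers (Alb, Ttr, Apoa1, Fga and Serpinc1) averaged between 14.30 and 14.35 in exposed livers and between 14.30 and 14.37 in control livers, and all 5 lay far above the median probe set (5.47).

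Promoters of 7 of the 10 genes were found in RefSeq's table for rat assembly GRCr8, and those of Cyp7a1, Cyp7b1 and Akr1d1 were not. The 250 bases before the annotated start are shown for Nr0b2, the 1 gene of the set with an unadjusted p under 0.05 on the Cyp7a1 slope described below, for Cyp8b1, which is known as a target of its protein, and for Cyp27a1, the first enzyme of the alternative pathway. Capitals mark exact matches to the motifs searched, on either strand. Each sequence runs 5′ to 3′ on the gene's own strand.
Nr0b2 (chr5:151062910-151063159, plus strand): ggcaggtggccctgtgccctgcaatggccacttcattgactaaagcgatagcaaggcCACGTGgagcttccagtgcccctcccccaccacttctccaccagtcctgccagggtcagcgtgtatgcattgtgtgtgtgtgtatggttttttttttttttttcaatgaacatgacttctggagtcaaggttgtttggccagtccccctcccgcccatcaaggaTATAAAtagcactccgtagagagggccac
Cyp8b1 (chr8:130457593-130457842, minus strand): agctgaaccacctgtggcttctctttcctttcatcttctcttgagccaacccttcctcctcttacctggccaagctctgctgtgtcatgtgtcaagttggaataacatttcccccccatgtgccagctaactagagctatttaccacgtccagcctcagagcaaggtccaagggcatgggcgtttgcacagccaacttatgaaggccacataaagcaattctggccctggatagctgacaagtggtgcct
Cyp27a1 (chr9:83713282-83713531, plus strand): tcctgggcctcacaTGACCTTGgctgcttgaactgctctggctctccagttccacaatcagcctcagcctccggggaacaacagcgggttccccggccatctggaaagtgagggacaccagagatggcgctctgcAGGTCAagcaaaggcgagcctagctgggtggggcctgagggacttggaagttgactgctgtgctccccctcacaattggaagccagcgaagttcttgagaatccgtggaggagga
In the Nr0b2 window the capitals are an E-box, the clock motif CACGTG, held by 5.59% of 33469 promoters of this length, and a TATA box, TATAAA, held by 12.9%. The TATA box begins at position -29 from the annotated start. In the Cyp27a1 window they are the LRH-1 element CAAGGTCA, held by 1.33% of promoters, on the minus strand, and the nuclear receptor core motif AGGTCA, held by 14.1%. The LRH-1 element contains the core motif, so that match counts under both motifs. The Cyp8b1 window held no exact match to the motifs searched, which also included the D-box TTATGTAA (0.828% of promoters), SRE TCACNCCAC (0.974%), the paired receptor motifs DR1 (0.0508%) and IR1 (0.0269%). Sites that differ from a motif by a single base were not counted. These are matches of letters in a short window and no measurement of binding.

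Cyp7a1 (probe set 1368458_at) had values of 9.72, 7.34, 10.61, 8.95 and 10.04 in exposed livers, against 8.74, 10.13, 7.11, 10.82 and 10.80 in control livers, for animals 1 to 5 of each group. The lowest animals were control 3 and exposed 2, 1 from each group, and a gap of 1.40 separated them from the next, control 1. The other 8 animals were spread between 8.74 and 10.82. The SD within groups was 1.44, and 14 of 31042 probe sets had a larger one, where the median probe set had 0.13. The groups overlapped over nearly the whole range, with means of 9.33 ± 1.27 in exposed livers and 9.52 ± 1.59 in control livers (SD, n = 5 each).

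**Figure D1:**
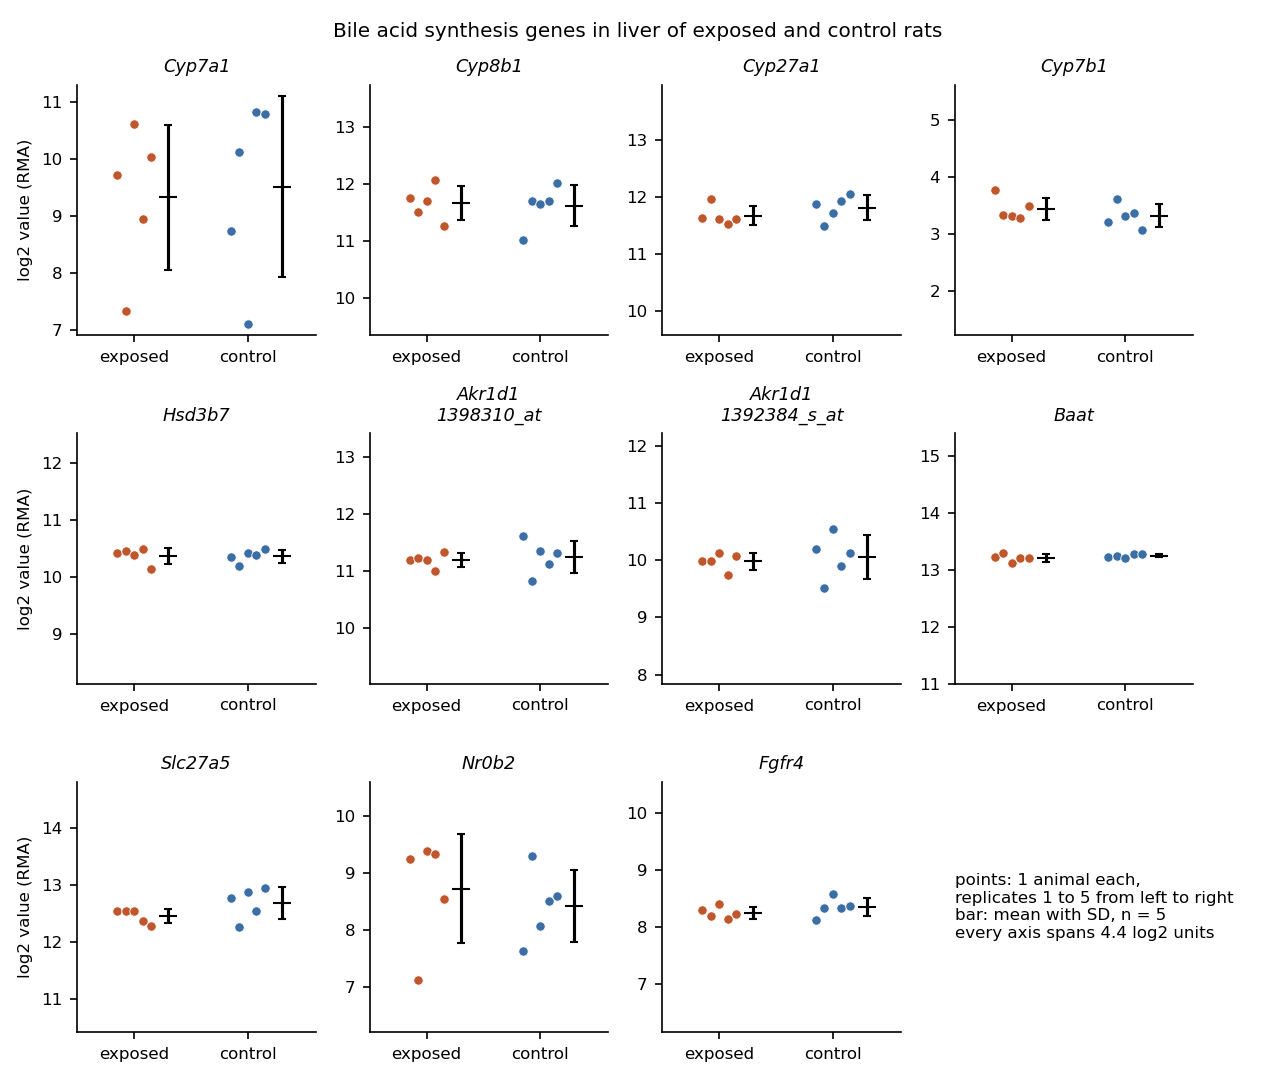
Log2 values of the 11 probe sets in exposed (left) and control (right) livers, with 1 point per animal and the mean with its SD beside each group of 5; all vertical axes have the same span. Cyp7a1 and Nr0b2 spread widely in both groups, with ranges of 3.71 and 2.26 log2 units, while Baat spans 0.18.

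Among the regulators, Nr0b2 had the second widest spread of the 10 genes. Its values were 9.24, 7.12, 9.38, 9.34 and 8.54 in exposed livers, against 7.63, 9.30, 8.06, 8.51 and 8.59 in control livers, a 4.78-fold range. The lowest was exposed 2, and control 1 and control 3 came next, so the 3 animals lowest in Nr0b2 were also the 3 lowest in Cyp7a1. Above them the order differed: exposed 4 had the second highest Nr0b2 value with a Cyp7a1 value of 8.95, and control 4 had the highest Cyp7a1 value with an Nr0b2 value of 8.51. Fgfr4, the receptor that carries the gut signal, varied little, with values of 8.30, 8.18, 8.40, 8.13 and 8.23 in exposed livers and 8.13, 8.34, 8.57, 8.33 and 8.37 in control livers.

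Of the enzymes that shape the sterol ring, Cyp8b1, which adds the hydroxyl group that makes cholic acid, had values of 11.75, 11.50, 11.70, 12.06 and 11.26 in exposed livers, against 11.01, 11.70, 11.65, 11.69 and 12.02 in control livers. Exposed 4 was the highest and control 1 the lowest, a 2.07-fold range. Hsd3b7, which oxidises the ring next to the Cyp7a1 step, had values between 10.14 and 10.48 in exposed livers and between 10.19 and 10.49 in control livers. Akr1d1, the reductase that gives bile acids their bent ring, had 2 probe sets. The brighter one (1398310_at) had values of 11.20, 11.23, 11.20, 10.99 and 11.33 in exposed livers, against 11.61, 10.83, 11.35, 11.13 and 11.31 in control livers. The other (1392384_s_at) lay between 9.74 and 10.13 in exposed livers and between 9.52 and 10.55 in control livers. Control 2 was lowest on both probe sets, and they correlated at r = 0.802 over the 10 animals with group means removed (Spearman's rho 0.758; permutation p 0.0102 and 0.0141).

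In the alternative pathway, Cyp27a1 had values of 11.62, 11.96, 11.61, 11.53 and 11.60 in exposed livers, against 11.87, 11.48, 11.71, 11.92 and 12.05 in control livers. Exposed 2, the exposed animal with the lowest Cyp7a1 value, stood above the other exposed animals. Cyp7b1, which hydroxylates oxysterols, read between 3.28 and 3.77 in exposed livers and between 3.08 and 3.62 in control livers. It was the only 1 of the 11 probe sets below the mean of the median probe set (5.47), and 11.6% of probe sets had a lower mean.

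The enzymes of conjugation, which join bile acids to taurine or glycine, read high. Slc27a5, the ligase that activates bile acids with coenzyme A, had values of 12.54, 12.55, 12.55, 12.37 and 12.29 in exposed livers, against 12.77, 12.28, 12.89, 12.55 and 12.95 in control livers. Controls 1, 3 and 5 lay above all exposed animals, control 4 was level with the highest of them, and control 2 lay below all of them. Baat, which completes the conjugation, lay between 13.11 and 13.28 in exposed livers and between 13.20 and 13.28 in control livers. Its SD within groups was 0.050, and 98.5% of probe sets had a larger one.

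The comparison of exposed with control livers asks whether the effluent altered these genes. Of the 11 probe sets, 4 were higher and 7 lower in exposed livers, with a median difference of -0.06 on the log2 scale against 0.0044 over all probe sets, and none passed the test. Limma called 0 of 31042 probe sets (0.00%) at an adjusted p of 0.05. Of the 11 it gave none even before adjustment (unadjusted p under 0.05), against 1695 probe sets (5.46%) in all. The groups overlapped for all 11 probe sets, and failed to overlap for 0.892% of all.

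The largest difference was that of Nr0b2, with 8.72 ± 0.96 in exposed livers and 8.42 ± 0.62 in control livers (SD, n = 5 each), or 0.31 ± 0.41 (SE; limma adjusted p 0.945). Without exposed 2 it was 0.71, and without control 1 it was 0.11. Slc27a5 had 12.46 ± 0.12 in exposed livers and 12.69 ± 0.28 in control livers (SD), a difference of -0.23 ± 0.12 (SE; limma adjusted p 0.879). Cyp7a1 differed by -0.19 ± 0.73 (SE), with a 95% interval of -1.77 to 1.39. Its sign turned without any 1 of 3 animals, at 0.31 without exposed 2, 0.14 without control 4 and 0.13 without control 5, and the difference was -0.79 without control 3. For 9 of the 11 probe sets the 95% interval excluded a doubling and a halving, the exceptions being Cyp7a1 and Nr0b2 (-0.59 to 1.20). Limma adjusted p values of the 11 lay between 0.879 and 0.992. All 5 measured markers of Kupffer cells, the resident macrophages of liver, were higher in exposed livers, with a median difference of 0.22, and none of them passed the test. Their part in these differences was not tested.

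**Figure D2:**
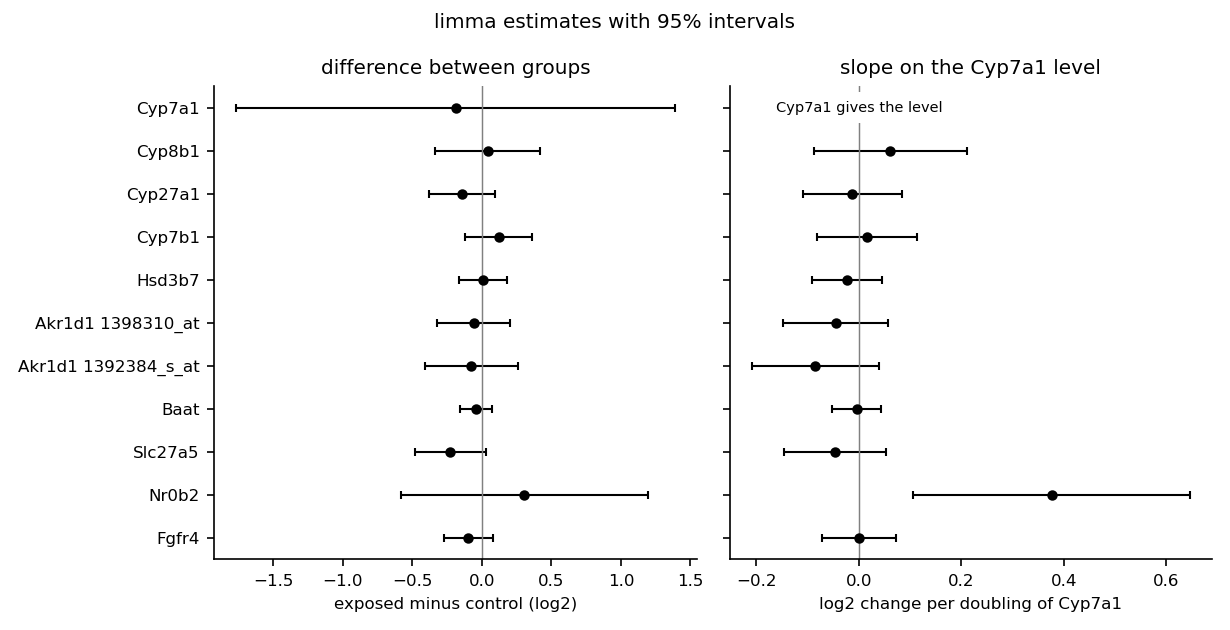
Limma estimates with 95% intervals for the 11 probe sets: exposed minus control in log2 units (left panel) and the slope on the Cyp7a1 level in log2 units per doubling of Cyp7a1 (right panel). All intervals in the left panel span 0; in the right panel that of Nr0b2, 0.11 to 0.65, lies above 0, but its adjusted p over all probe sets is 0.432.

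What moved with Cyp7a1 between animals was then asked with a slope, the log2 change of a probe set per doubling of Cyp7a1, fitted by limma with a term for the group over all 31041 other probe sets. Of the 10 other probe sets of the bile acid genes, 3 had a positive and 7 a negative slope, with a median of -0.0087 against 0.00061 over all probe sets. Limma called 0 of these 10, against 7 of all probe sets (0.0226%). At an unadjusted p under 0.05 it gave 1 of the 10, against 8.83% of all. No enzyme of the set was called as moving with Cyp7a1.

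That 1 gene was Nr0b2, on the positive side, where 4.77% of all probe sets lay at that level. It had a slope of 0.38 ± 0.12 (SE; limma unadjusted p 0.0105, adjusted p 0.432). Across the 10 animals, with group means removed, Pearson's r was 0.669 (permutation p 0.034, adjusted over all probe sets 0.431) and Spearman's rho 0.515 (permutation p 0.133, adjusted 0.550). An absolute r at least as large was reached by 7.93% of all probe sets. Without control 3 and exposed 2, the 2 animals farthest from the median of Cyp7a1, r was 0.407 over the other 8, so the relation rests in part on those animals. The slope was positive in each of 20 alternative fits, between 0.15 and 0.56. These include a fit on ranks of Cyp7a1, whose slope is per rank step and not per doubling. With single animals left out it lay between 0.19 and 0.56.

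The other members had flatter slopes. Cyp8b1 had a slope of 0.062 (95% interval -0.087 to 0.21), Slc27a5 of -0.047 (-0.15 to 0.052) and Cyp27a1 of -0.013 (-0.11 to 0.083). Akr1d1 had -0.045 and -0.085 on its 2 probe sets. Baat had -0.0044 (-0.051 to 0.043) and Hsd3b7 -0.023 (-0.092 to 0.045). Fgfr4 had a slope of -0.00019 and an r of -0.0021 over the 10 animals, but r was 0.911 over the 8 animals left without control 3 and exposed 2. In the limma slope fit on those 8 animals, 3952 of 31041 probe sets had an unadjusted p under 0.05 and 0 were called. Control 3 had the lowest Cyp7a1 value and the highest Fgfr4 value, 8.57.

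**Figure D3:**
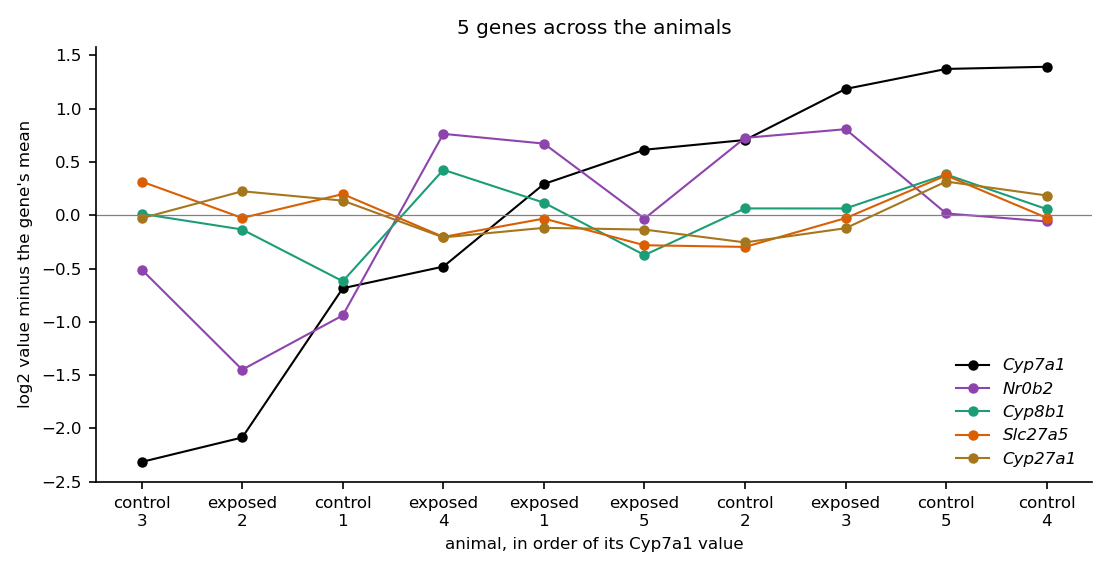
Log2 values of Cyp7a1, Nr0b2, Cyp8b1, Slc27a5 and Cyp27a1, each minus its own mean over the 10 animals, with animals in order of their Cyp7a1 value from low to high. Nr0b2 is below its mean in the 3 animals with the lowest Cyp7a1, and the 3 enzymes spread far less, with ranges of 1.05 (Cyp8b1), 0.67 (Slc27a5) and 0.57 (Cyp27a1) log2 units.

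The genes were also set against each other. Of 54 pairs of probe sets of different genes, 8 had an absolute r over 0.6 over the 10 animals with group means removed, and 5 had a permutation p under 0.05 before adjustment. With the single probe sets as the level, between 3.30% and 8.83% of all probe sets had a limma unadjusted p under 0.05. The share of 5 in 54 lies just above that range, which comes from another test than the permutation. The top of the range is that of Cyp7a1, and the levels of Hsd3b7, Akr1d1 and Slc27a5 gave between 3.91% and 5.33%. The pairs share genes and animals, so they are not independent. The highest r was that of Slc27a5 with Akr1d1 on its dimmer probe set (r = 0.799, rho 0.612, permutation p 0.00613 and 0.0655). On the brighter one it was 0.678 (rho 0.442, permutation p 0.0327 and 0.204). Slc27a5 and Hsd3b7 had a positive r too (r = 0.716, rho 0.673, permutation p 0.0225 and 0.0387). Nr0b2 and Cyp27a1 had the lowest r (r = -0.672, rho -0.564, permutation p 0.0332 and 0.0978). When each of the 11 probe sets in turn was taken as the level and limma was run over all other probe sets, 0 pairs of these genes passed the adjusted threshold, and for Akr1d1 and Slc27a5 the limma adjusted p was 0.904. Only Cyp7a1 as the level gave any call among all probe sets, and the other 10 gave 0 each, with 1023 to 2338 probe sets at an unadjusted p under 0.05.

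Single animals carried part of these relations. Without control 2, the lowest animal for Akr1d1 and Slc27a5, r between those genes was 0.539 on the dimmer and 0.260 on the brighter Akr1d1 probe set, and between Slc27a5 and Hsd3b7 it was 0.544. Leaving out the 2 animals farthest from the Hsd3b7 median gave r = 0.288 for the second pair, and leaving out those farthest from the Akr1d1 median gave 0.497 and 0.422 for the first, on the dimmer and the brighter probe set. For Nr0b2 and Cyp27a1, r was -0.411 without exposed 2 and -0.823 without control 5. Control 5 had the highest value of Slc27a5, Cyp27a1 and Hsd3b7 and also the highest log2 ratio of 3′ to 5′ control probe sets, 0.735 against 0.494 to 0.626 in the other animals. Of 11 relations of this RNA quality measure to the bile acid genes, those of Cyp8b1 (r = 0.802, rho 0.527; permutation p 0.00661 and 0.123) and Hsd3b7 (r = 0.690, rho 0.842; permutation p 0.0274 and 0.0033) had an unadjusted p under 0.05. Without control 5 and exposed 5, the animals farthest in the ratio, r was 0.641 and 0.355. The share of all probe sets with such a relation to the ratio was not computed, so these 2 cannot be set against it. Cyp7a1 and the ratio had r = 0.103 (rho 0.127; permutation p 0.77 and 0.735). Without control 3 and exposed 2, the animals farthest from the Cyp7a1 median, that r was 0.557. The part of RNA quality in the pairs was not tested.

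**Figure D4:**
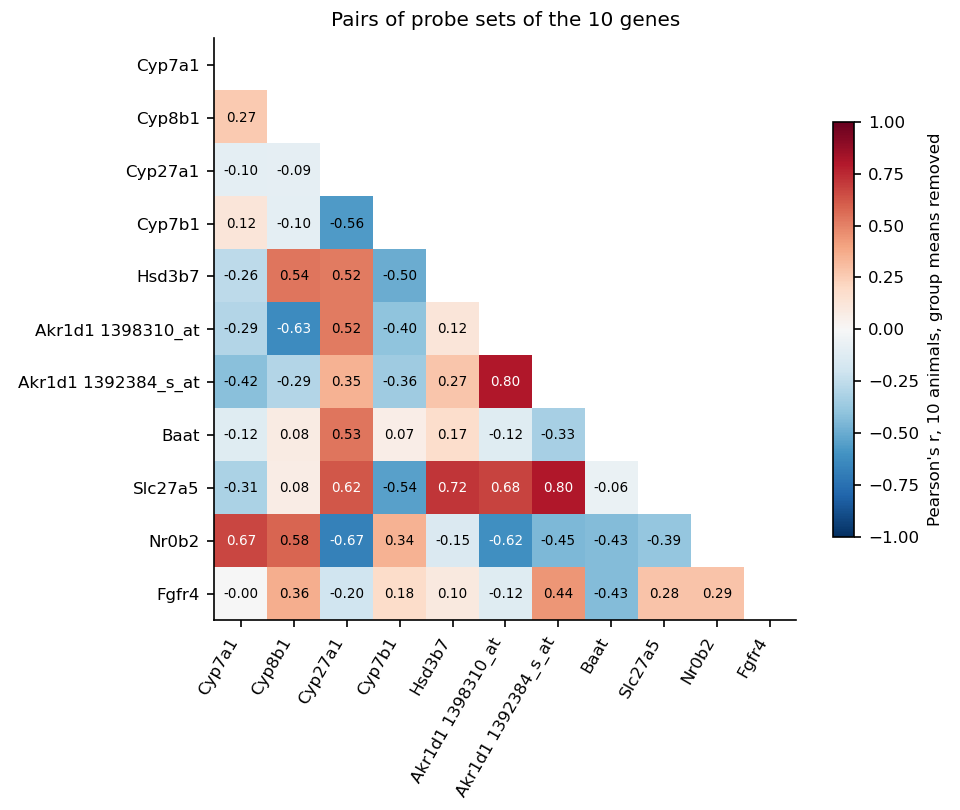
Pearson's r between the 11 probe sets over the 10 animals with group means removed, with red for positive and blue for negative values. The highest values, 0.802 and 0.799, belong to the 2 probe sets of Akr1d1 and to Akr1d1 with Slc27a5, and Nr0b2 is positive with Cyp7a1 and Cyp8b1 and negative with Cyp27a1.

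Outside the bile acid genes, 7 probe sets were called on the Cyp7a1 slope, 4 positive and 3 negative, and 4 of them named 1 gene. Slc22a23, an orphan member of the organic ion transporter family, rose with Cyp7a1. Its values were 8.92, 8.44, 9.23, 8.84 and 8.95 in exposed livers and 8.81, 9.37, 8.49, 9.40 and 9.47 in control livers, a slope of 0.25 ± 0.02 (SE; limma adjusted p 0.00483). Pnisr, a nuclear protein with a serine and arginine-rich stretch, rose with a slope of 0.24 ± 0.03 (adjusted p 0.0288), with 2 of its 3 probe sets positive. The called Pnisr probe set was dim, between 4.24 and 5.30 in all animals against 5.47 for the median probe set. It lost its call in 11 of 19 alternative fits. Irf2bpl, a nuclear regulator with a RING domain, fell as Cyp7a1 rose. Its values were 8.62, 9.12, 8.24, 8.65 and 8.35 in exposed livers and 9.06, 8.44, 9.35, 8.09 and 8.39 in control livers, a slope of -0.30 ± 0.03 (adjusted p 0.00483), and all 3 of its probe sets were negative. Cd93, a lectin-like receptor of endothelial and myeloid cells, fell with a slope of -0.34 ± 0.04 (adjusted p 0.0211). The other 3 called probe sets carry no gene name here, with slopes of -0.42, 0.44 and 0.24.

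These calls depended on few animals. Limma called 0 probe sets without both control 3 and exposed 2. It called 1 without exposed 2 alone, 1 without control 3 alone, 4 without exposed 3, 4 without control 2 and 11 without exposed 4. Among the 8 other animals the 4 named genes, which were picked for their slope over animals that include these 8, had r = 0.945 for Slc22a23, 0.933 for Pnisr, -0.929 for Irf2bpl and -0.810 for Cd93, against 0.978, 0.943, -0.967 and -0.938 over all 10. By permutation of Pearson's r over all 31041 relations, 0 passed, with 3294 at an unadjusted p under 0.05. The smallest permutation p, 1e-05, is the smallest that 100000 permutations can give, and it came to an adjusted p of 0.0517.

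The genes nearest in pattern to Cyp7a1 after these did not pass the threshold. On the positive side they were Irgm2, an immunity-related GTPase (slope 0.16, r = 0.964), Mdm4, an inhibitor of p53 (0.27 and 0.17 on its 2 probe sets, r = 0.915 and 0.916), the mitochondrial dicarboxylate carrier Slc25a10 (0.17, r = 0.935), Fbxo45 (0.18, r = 0.917) and Ddit4, an inhibitor of mTORC1 (0.46, r = 0.854). On the negative side they were Dusp1, a phosphatase that switches off MAP kinases (-0.35, r = -0.908), Dusp5, which acts on ERK (-0.18, r = -0.928), Spry1, an inhibitor of growth factor receptor signalling (-0.19, r = -0.914), the growth arrest gene Gadd45a (-0.44, r = -0.884), Ier5 (-0.20, r = -0.917) and Chodl (-0.18, r = -0.920). Limma adjusted p values ran from 0.0610 for Dusp1 to 0.184 for Ddit4. Dusp1 read 7.22, 8.19, 6.87, 8.18 and 7.23 in exposed livers, against 7.09, 6.94, 7.91, 6.76 and 6.67 in control livers, and exposed 2, exposed 4 and control 3 were the highest.

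**Figure D5:**
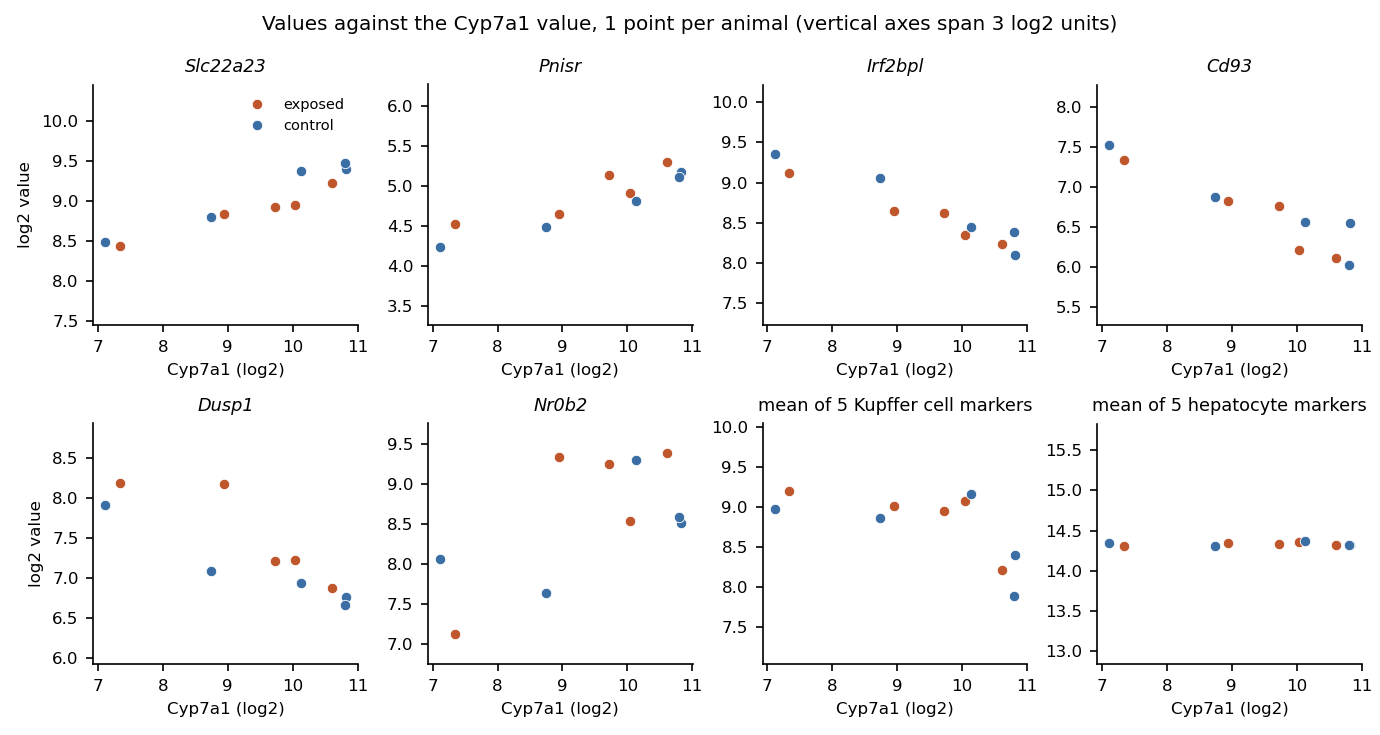
Log2 values of 6 genes and the mean log2 values of 5 Kupffer cell and 5 hepatocyte markers against the Cyp7a1 value, with 1 point per animal. Slc22a23 and Pnisr climb and Irf2bpl, Cd93 and Dusp1 descend along Cyp7a1 in both groups, Nr0b2 is lowest at low Cyp7a1, and the hepatocyte markers stay between 14.30 and 14.37.

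Markers of other liver cells had mostly negative slopes on Cyp7a1 with 0 called, and in bulk liver fewer cells of a type and less RNA per cell cannot be told apart. All 5 measured Kupffer cell markers (Cd68, Clec4f, Cd5l, Aif1 and Cd163), had negative slopes, with a median of -0.20 and 4 of 5 at an unadjusted p under 0.05, against 4.06% of all probe sets negative at that level. None passed the adjusted threshold. These 5 markers stand for the same cells in the same animals, so they are not independent and compare poorly with a share of all probe sets. Their mean level ran from 8.21 to 9.19 in exposed livers and from 7.89 to 9.16 in control livers, highest in exposed 2 and lowest in control 5. Control 5, exposed 3 and control 4, the 3 animals with the highest Cyp7a1 values, had the 3 lowest levels (7.89, 8.21 and 8.40), and the other 7 lay between 8.86 and 9.19. All 5 endothelial markers were negative too, with a median of -0.067, as were 5 of 6 lymphocyte markers (-0.047), 6 of 6 stellate cell markers (-0.049) and 4 of 4 bile duct markers (-0.043). Pearson's r of the mean level with Cyp7a1 was -0.779 for endothelial, -0.722 for bile duct, -0.644 for lymphocyte, -0.628 for Kupffer and -0.528 for stellate cell markers. Without control 3 and exposed 2 it was -0.205, -0.309, -0.908, -0.642 and -0.414. After adjustment over 19 such measures none passed, with a smallest permutation adjusted p of 0.169 for r and 0.135 for rho. The mean level of endothelial markers ran from 8.36 to 8.77 in exposed livers and from 8.28 to 8.68 in control livers, and that of lymphocyte markers from 4.93 to 5.22 in exposed livers and from 4.82 to 5.14 in control livers. Of the lymphocyte markers 1 of 6, Cd79b, lay above the mean of the median probe set, and of the pancreas and skeletal muscle markers 0 of 3 each. The part of these cells in the relations of Cyp7a1 was not tested.

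Other genes of bile acid handling gave no call, and their counts before adjustment stand against 8.83% of all probe sets with an unadjusted slope p under 0.05. Among 14 further synthesis enzymes, 6 had a positive and 8 a negative slope (median -0.0050), 0 were called and 3 had an unadjusted p under 0.05. Amacr, a racemase of side-chain shortening, had a slope of 0.12 ± 0.03 (SE) and Por, which passes electrons to P450 enzymes, of 0.18 ± 0.07. Among 15 transporters, 11 were positive and 4 negative (median 0.0092), with 0 called and 2 at an unadjusted p under 0.05. These were Atp8b1, a lipid flippase of the canalicular membrane (0.12 ± 0.03), and the export pump Abcc2 (0.10 ± 0.04). Abcb11, the bile salt export pump, had a slope of -0.021 ± 0.045.

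Among 23 known regulators of Cyp7a1 the slopes were positive for 13 and negative for 10 (median 0.016), with 0 called and 5 at an unadjusted p under 0.05, against the same 8.83% of all. Hnf4a, a nuclear receptor that activates Cyp7a1, had 0.15 ± 0.04 (SE; limma adjusted p 0.363) and Foxa2, a pioneer factor of liver, -0.39 ± 0.10 (adjusted p 0.366). Nr1h4 had 0.057 ± 0.038. Klb, the partner of Fgfr4, was not analysed here. Of 17 clock and clock output genes, 8 were positive and 9 negative (median -0.023), with 0 called and 4 at an unadjusted p under 0.05, against 8.83% of all. Dbp, a clock output factor known to act on Cyp7a1, had 0.58 ± 0.21 (adjusted p 0.471; r = 0.630, rho 0.636, permutation p 0.0547 and 0.0555), Nfil3, its opponent, -0.27 ± 0.08 and Nr1d1 0.22 ± 0.12. For animals 1 to 5, Dbp read 7.3, 6.8, 8.7, 8.8 and 9.5 in exposed livers and 5.8, 6.5, 7.0, 8.7 and 9.3 in control livers. It was thus mostly higher at higher replicate numbers in both groups. With the replicate number as a block in the fit, its slope was 0.28 (limma adjusted p 0.312).

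Cholesterol genes, which supply the substrate, had 5 positive and 12 negative slopes of 17 (median -0.022), with Pmvk at -0.13 ± 0.04 (SE) and Lss at 0.17 ± 0.07. Fasting and feeding genes had 10 positive and 7 negative of 17 (median 0.027), with Tat, an amino acid enzyme raised by glucocorticoids, at 0.20 ± 0.04 and Srebf1 at 0.15 ± 0.05. Acute phase genes and inflammatory repressors had 3 positive and 9 negative of 12 (median -0.025), with Il1b at -0.18 ± 0.08 and Cebpd at -0.078 ± 0.034. Cyp7a1 is known as a gene of the hepatocytes around the central vein. Pericentral genes had 7 positive and 2 negative slopes of 9 (median 0.015), with Axin2 at 0.13 ± 0.03 and Tbx3 at 0.082 ± 0.025. The 2 negative ones were Glul (-0.0049) and Cyp1a2 (-0.042). Axin2 and Tbx3 were dim, with means of 6.10 and 6.04 against 5.47 for the median probe set. Periportal genes had 3 positive and 7 negative slopes of 10 (median -0.033), with Cyp2f4 at -0.059 ± 0.035 and Ctnnbip1 at -0.045 ± 0.028. Limma called 0 genes of these 5 lists, with adjusted p values between 0.298 and 0.674 for the 2 genes with the smallest p in each. Leaving out 1 animal moved the slope of 9 of the 21 genes named from the lists by the rules given below by over 1.5 times. Without control 3 the slope was 0.42 for Nr1d1, 0.87 for Dbp, 0.17 for Abcc2, 0.098 for Nr1h4, -0.29 for Il1b, -0.14 for Cebpd and -0.025 for Cyp2f4. Without control 1 it was 0.13 for Nr1d1, and without control 4 it was 0.10 for Lss and 0.034 for Nr1h4. Without exposed 2 it was 0.029 for Nr1h4 and -0.0019 for Abcb11.

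Between exposed and control livers the same lists also held 0 calls. Regulators of Cyp7a1 were higher for 6 and lower for 17 of 23 genes, with Ppargc1a at 0.16 ± 0.10 (SE) and Prox1 at -0.20 ± 0.12. Further synthesis enzymes were higher for 6 and lower for 8, with Hsd17b4 at -0.13 ± 0.07 and Acox2 at -0.30 ± 0.23, and transporters higher for 7 and lower for 8, with Abcc2 at 0.13 ± 0.13 and Slco1b2 at 0.077 ± 0.096. Clock genes split 9 and 8, with Rora at -0.35 ± 0.16 and Clock at -0.22 ± 0.11. Cholesterol genes split 10 and 7, with Srebf2 at 0.24 ± 0.12 and Nsdhl at 0.12 ± 0.08. In fasting and feeding genes, split 9 and 8, Sds differed by -0.55 ± 0.19 and Acly by 0.32 ± 0.14. Stat3 at -0.31 ± 0.10 and Lcn2 at -0.52 ± 0.29 led the acute phase list (3 higher, 9 lower), Slc1a2 at -0.34 ± 0.13 and Cyp1a2 at -0.23 ± 0.12 the pericentral list (4 and 5), and Sds and Cdh1 (0.18 ± 0.13) the periportal list (5 and 5). Limma adjusted p values of these genes lay between 0.879 and 0.940. Leaving out 1 animal moved the difference of 10 of these 17 genes by over 1.5 times, for example to -0.28 for Lcn2 without control 4, -0.12 for Acox2 and 0.044 for Cdh1 without control 5, and -0.31 for Prox1 without exposed 3.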

How the data were processed

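Liver RNA of 10 rats was measured on Affymetrix 3′ arrays. The deposited values are log2 expression per probe set, which the authors obtained by RMA (the submitters' processing notes list R 2.8.1); their range of 2.19 to 15.0 gave the log2 scale, and the version of the probe set definition is not given in the sources used here. RMA normalizes arrays to one another, so a shift shared by most genes is removed. Of 31099 probe sets, 57 control sets were left out. Gene names came from the platform annotation (20826 probe sets with 1 symbol, 436 with several, 9780 unnamed here), and the symbols of all 11 probe sets of the bile acid genes stood in RefSeq's table for GRCr8.

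Differences and slopes were fitted with limma 3.58.1 in R 4.3.3 (lmFit, eBayes, two-sided) over all probe sets, with Benjamini-Hochberg adjustment and a threshold of 0.05. Correlations used values with group means removed and 100000 two-sided permutations, with adjustment over all probe sets for relations to Cyp7a1 (numpy 2.4.6). The permutations ran across both groups and made no allowance for the group means removed, so their p values may be somewhat too small. Each listed gene entered through the brightest of its probe sets. The number of arrays limits the precision. Members and lists were chosen with earlier results of these data known. Named genes are all members, 2 genes per list and comparison by the smallest p, the 8 single-gene probe sets per direction with the smallest slope p, and Dbp, Nr1d1, Abcb11, Nr1h4 and Klb, of which Klb was not analysed here. A further gene of the rule is not reported here. Glul and Cyp1a2 are also named on the slope, as the pericentral genes with a negative one. Other called probe sets, and markers of other cells, are named as a group. The slope test was checked on simulated data.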

Additional observations from a re-analysis of the deposited data

Results flagged for a closer look

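In 5 of 134 groups of 5 values, a single animal lay well away from the rest, judged by how much of the group's range its distance to the next animal takes up. Chance alone puts about 1 group in 20 there, or 6.7 groups. Of the 22 groups of bile acid genes 2 were among them. Exposed 2 read 11.96 for Cyp27a1, against 11.53 to 11.62 in the other exposed animals. Exposed 5 read 10.14 for Hsd3b7, against 10.38 to 10.48 in the other exposed animals. Among genes of the lists, exposed 3 read 9.98 for Prox1 (others 9.36 to 9.51), exposed 4 read 10.95 for Acly (others 11.48 to 11.56) and control 4 read 8.18 for Lcn2 (others 6.77 to 7.12).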

How the results depend on the processing

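The count of 0 probe sets called between exposed and control livers held except without exposed 1 (leave-one-out 0 to 1). The count of 7 on the Cyp7a1 slope was 11 with a trended and robust prior and 0 without the 2 animals farthest from the Cyp7a1 median, with a leave-one-out range of 1 to 11, and between 5 and 10 under the other alternatives. With the replicate number as a block it was 5, of which 1 was shared with the 7, and the difference between groups still gave 0. Slc22a23, Pnisr, Irf2bpl and Cd93 were not among those 5. Deviations of same-numbered animals correlated between -0.070 and 0.094 over all probe sets. That measure cannot show whether same-numbered animals share something that acts on few genes. The range of Cyp7a1 was between 3.48 and 3.71 without single animals. Differences of uncalled members turned sign for Hsd3b7 with centring (-0.013) and for Cyp8b1 with array weights (-0.0034). Slopes turned sign for Fgfr4 with centring (0.00193), the replicate block (0.015), array weights (0.00754), no group term (0.00259) and ranks of Cyp7a1 (0.00319 per rank step). With ranks that of Cyp27a1 turned too (0.00246 per rank step). Without the 2 farthest animals slopes turned to 0.052 for Cyp27a1, 0.022 for Akr1d1 (1392384_s_at), 0.014 for Slc27a5, 0.12 for Fgfr4 and 0.096 for Abcb11. Leaving out single animals turned signs too. Differences then ranged from -0.79 to 0.31 for Cyp7a1, -0.11 to 0.14 for Cyp8b1, -0.035 to 0.070 for Hsd3b7, -0.16 to 0.032 and -0.21 to 0.047 for Akr1d1 and -0.012 to 0.12 for Slco1b2. Slopes ranged from -0.055 to 0.045 for Cyp27a1, -0.022 to 0.011 for Baat, -0.12 to 0.0078 for Akr1d1 (1392384_s_at), -0.017 to 0.073 for Fgfr4 and -0.059 to 0.0089 for Abcb11. The cause of each was not tested. The results on single probe sets were counted once per alternative setting. Of these counts, 1377 kept their direction and side of the threshold, 47 no longer passed it, 12 newly passed it and 35 turned sign. All 47 losses fell on the 7 called probe sets, as the uncalled ones had no call to lose. Pnisr lost its call in 11 of 19 settings, Cd93 in 7 of 20, and Slc22a23 and Irf2bpl in 4 of 20 each. The called probe sets without a gene name lost it in 2, 5 and 14 of 20. With the filter on low values Cyp7b1 was left out, and another Cyp7a1 probe set could not be tried, as the array has 1.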
